A study of Mus musculus with 12 samples.

Results

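The mitochondrial respiratory chain was followed here through 87 nuclear genes, of 19938 genes measured alone by a probe set. The members were taken by symbol: all genes whose name begins with Nduf, Uqcr, Atp5 or Cox4 to Cox8, together with Sdha, Sdhb, Sdhc and Sdhd. The 2 isoform genes Cox7a1 and Cox8b were left out by that rule and are given only as values. By complex, 41 members belonged to complex I (28 accessory subunits, 7 assembly factors and 6 core subunits), 4 to complex II, 8 to complex III, 17 to complex IV and 17 to complex V. The rule uses symbols and no expression value, and no filter on low values was applied, so all 87 were tested. A further 4 symbols that the rule would take (Cox7c, Ndufb4, Ndufb4b and Ndufs5-ps) lay only on probe sets shared by several symbols and were not analysed here. A total of 17 members have more than 1 probe set; the brightest was used, and over the 102 gene and comparison pairs the probe sets of a gene differed in sign in 7. Several members have near copies in the genome, and what their probes take up from them cannot be seen in these values.

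The samples were 12 arrays of mouse total RNA in 4 groups, with 3 biological replicates in each. Adipocytes were obtained in culture from 3 sources: 3T3-L1, an established mouse fibroblast line that turns into fat cells on hormonal induction; PMEF, which are embryonic fibroblasts taken as primary cells from mice; and ES, pluripotent stem cells of the mouse embryo. The fourth group was epididymal white adipose tissue (eWAT) of healthy wild-type mice, a whole tissue that holds vessel, stromal and immune cells besides adipocytes. The labels give no treatment, genotype, age, sex or number of animals or culture batches beyond this, and the 4 groups share no stated agent. Values are log2 intensities from Affymetrix arrays. A difference of 1 on this scale is a 2-fold change.

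The respiratory chain passes electrons from NADH (complex I) and succinate (complex II) through complex III and cytochrome c to oxygen at complex IV, and pumps protons out of the mitochondrial matrix. Complex V, the ATP synthase, lets the protons back and makes ATP. Most subunits are made from nuclear genes in the cytosol, while a small set is encoded by mitochondrial DNA. White adipocytes need this capacity for making and storing fat, and brown adipocytes, which burn fuel for heat, hold far more of it. Several complex IV subunits have alternative isoforms, used mainly in muscle, testis or cells short of oxygen.

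All 4 groups carried the adipocyte markers (8 of 8 measured), but not at equal levels. Their summed log2 levels were 14.87 to 14.94 in 3T3-L1, 14.895 to 14.94 in PMEF, 15.20 to 15.21 in ES and 15.24 to 15.33 in eWAT. Against eWAT, 4 of the 8 were lower and 0 higher in 3T3-L1, 5 and 0 in PMEF, and 4 and 2 in ES. The summed levels of macrophage markers (12.64 to 13.59, against 9.20 to 10.76 in the cultured cells) and of endothelial markers (12.4 to 12.7, against 7.85 to 8.29) were highest in eWAT. Of the 8 macrophage markers 7 were lower in 3T3-L1 than in eWAT, and 1, Cd68, was higher (10.58, 10.37 and 10.30, against 8.89, 9.65 and 9.91). Fibroblast markers, 6 of 6 measured, were highest in PMEF (summed levels 14.52 to 14.54), lower in eWAT (13.43 to 13.54) and ES (13.05 to 13.12), and lowest in 3T3-L1 (11.91 to 11.98). Pluripotency markers, 5 of 5 measured, were near background in all groups (the highest gene mean was 5.06 in 3T3-L1, 5.35 in PMEF, 5.501 in ES and 5.19 in eWAT). In such bulk samples, fewer cells of a type and less RNA per cell cannot be told apart. Replicate arrays correlated at 0.992 to 0.997 over genes. Hprt, a common reference gene, was at 4.45 ± 0.24 (SD, n = 3) in ES and between 9.59 and 10.3 in the other group means, and it was not used for scaling.

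The members were bright genes: their means over 12 arrays ran from 3.16 to 12.6 with a median of 10.2, and 77 of 87 lay among the 6646 brightest genes. Bright genes as a whole differed between these groups more often than dim ones, so the counts of members higher and lower in a comparison are set beside both all 19938 genes and the 6646 brightest of them, and other counts beside all genes. Across the 4 groups, 77 of the 87 members differed by limma's moderated F test (adjusted p under 0.05), against 69.3% of all genes. Arrays of a pair of groups often did not overlap. Of all 19938 genes, 6803 lay wholly higher and 4971 wholly lower in 3T3-L1 than in eWAT. The counts were 5619 and 4732 in PMEF and 6698 and 4854 in ES, so non-overlap between a pair of groups is a common trait of genes here.

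**Figure D1:**
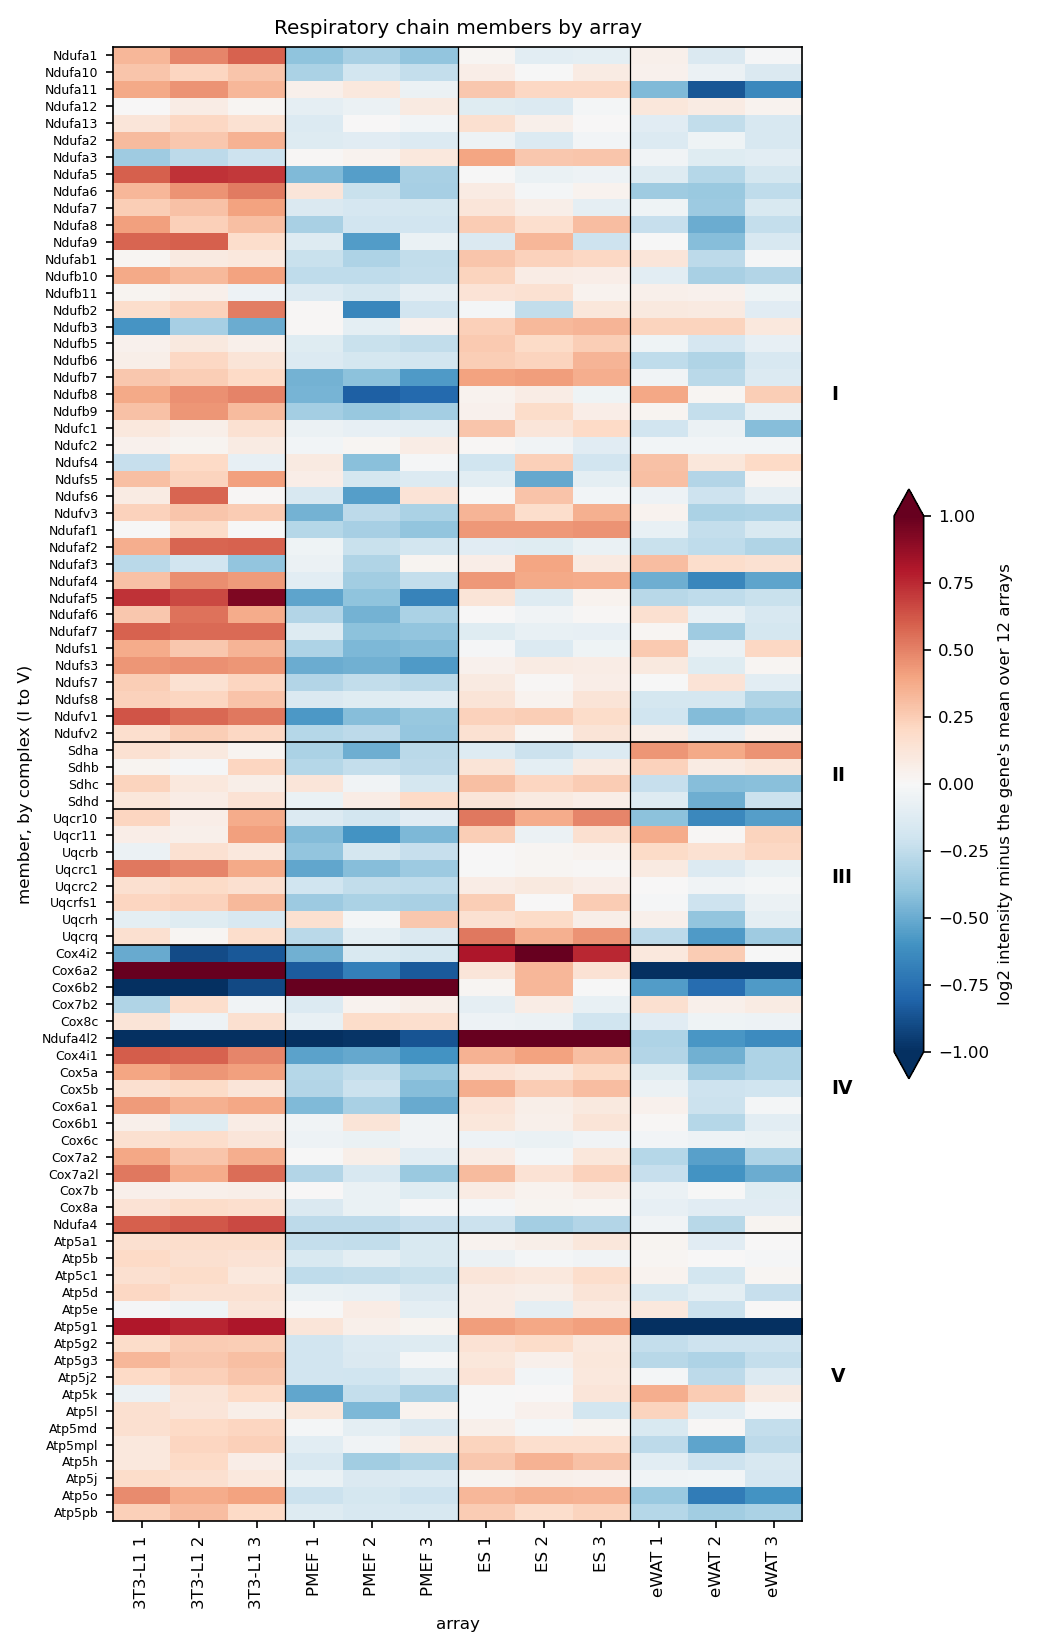
Each row is 1 of the 87 members, grouped by complex I to V, and each column 1 of the 12 arrays. Colour is the log2 intensity minus that gene's own mean over the 12 arrays, limited to -1 to 1. The 3 columns of 3T3-L1 are mostly red and those of PMEF mostly blue, while single isoform genes of complex IV (Cox4i2, Cox6a2, Cox6b2, Ndufa4l2) depart from the rest of their complex.

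In the deposited values, the group mean was highest in 3T3-L1 for 54 of 87 members (62.1%, against 30.4% of all genes and 42.4% of the brightest), in ES for 21, in eWAT for 9 and in PMEF for 3 (19.0%, 23.5% and 27.0% of all genes). It was lowest in PMEF for 46 (52.9%, against 3985 of all 19938 genes and 29.6% of the brightest), in eWAT for 29, in 3T3-L1 for 7 and in ES for 5; the 33.3% lowest in eWAT equals the share of all genes. On single arrays, the median deviation of the 87 members from their own means was 0.18, 0.21 and 0.21 in 3T3-L1, 0.12, 0.07 and 0.09 in ES, -0.03, -0.21 and -0.14 in eWAT, and -0.16, -0.21 and -0.18 in PMEF. The ranges of 3T3-L1, ES and PMEF did not overlap by this measure, and the range of eWAT overlapped that of PMEF. The eWAT array nearest 0, replicate 1, had the lowest macrophage marker Adgre1 of the 3 (8.78, against 9.73 and 10.2) and the highest of the brown adipocyte gene Ucp1 (10.05, against 8.05 and 7.45); both genes were chosen after their values were seen, and their part in the members' levels was not tested.

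**Figure D2:**
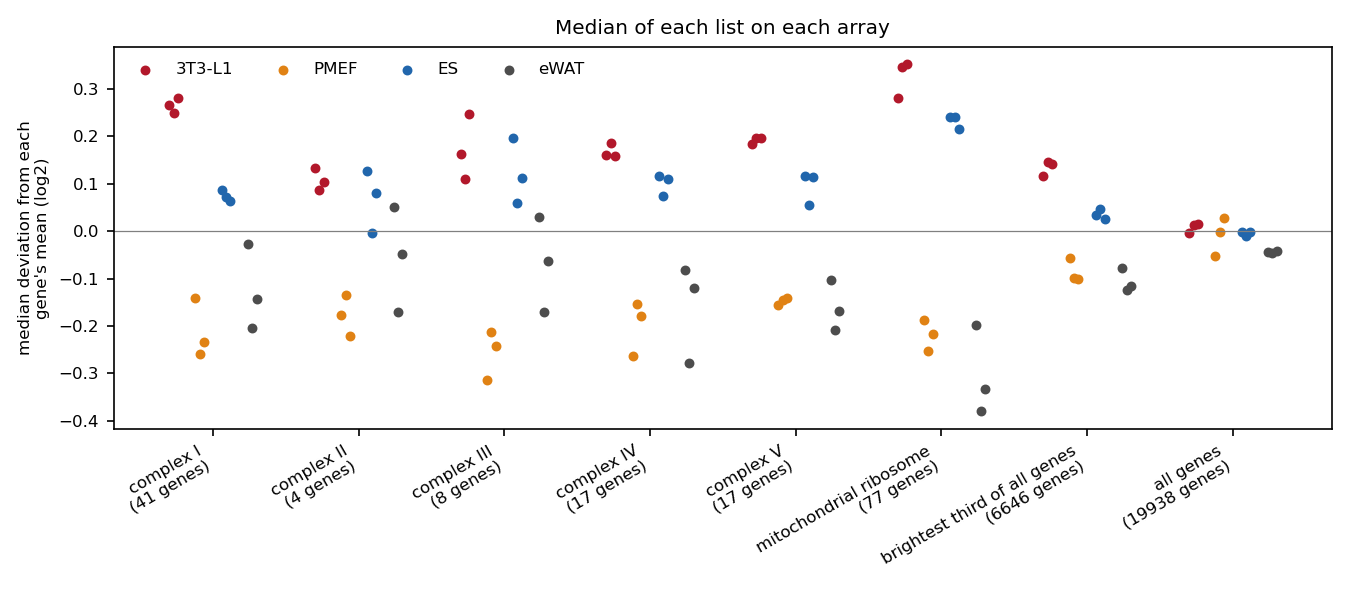
Each point is 1 array, and its height is the median over the genes of a list of the log2 intensity minus each gene's mean over 12 arrays. For every complex the 3 arrays of 3T3-L1 lie above the 3 of PMEF, and eWAT replicate 1 lies highest of the eWAT arrays in each complex.

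Against eWAT, 58 members were higher in 3T3-L1 adipocytes and 7 lower, with 22 not called. Of all genes, 30.8% were higher and 22.5% lower in that comparison, and of the brightest genes 53.2% and 24.5%. The median member difference was 0.33 (all genes 0.05, brightest genes 0.25). These counts depended on how the arrays were scaled. With each array centred on the median of all genes, which moved the median gene by 0.21, the counts were 72 higher and 5 lower (52.5% and 15.6% of all genes). With quantile normalization they were 44 and 12 (30.7% and 23.6%). With arrays centred on 8 reference genes, which moved the median gene by -0.30, they were 24 higher and 18 lower (17.5% and 50.4% of all genes), and the median difference was 0.04 for members and -0.25 for all genes. The reference genes were themselves not steady as deposited: 5 of the 8 were higher in 3T3-L1 than in eWAT and 1 lower, with differences from -0.87 to 1.05. Of the 87 members 4 changed 2-fold or more, against 14.5% of all genes. The largest rises were in Cox6a2 (3.39 ± 0.09 SE), Atp5g1 (2.05 ± 0.06), Ndufa11 (1.03 ± 0.09), Ndufaf5 (1.02 ± 0.09) and Atp5o (0.97 ± 0.08). The largest falls were in Cox4i2 (-0.87 ± 0.13), Ndufa4l2 (-0.80 ± 0.11), Ndufb3 (-0.66 ± 0.08), Cox6b2 (-0.53 ± 0.13) and Ndufaf3 (-0.50 ± 0.11). All 10 passed limma's test, with adjusted p of 0.0038 or less. The 3T3-L1 means of Cox4i2, Ndufa4l2 and Cox6b2 were 6.23, 6.04 and 5.42. These were low values, near or below the array medians over genes (6.11 to 6.35), so the sizes of these falls are uncertain.

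In PMEF adipocytes the balance as deposited lay the other way: 13 members (14.9%) were higher than in eWAT and 27 (31.0%) lower, with 47 not called. Among all genes 24.7% were higher and 21.6% lower, and among the brightest genes 32.9% and 29.0%. The median member difference was -0.09, against 0.05 for all genes. The share lower was near that of the brightest genes, and the share higher was below theirs. Without eWAT replicate 1 the counts were 15 higher and 18 lower (24.1% and 20.9% of all genes), with a median of -0.04. Little of the balance then remained. The 2 members changed 2-fold or more (10.4% of all genes did) were Cox6b2 (2.30 ± 0.13) and Atp5g1 (1.33 ± 0.06). The next largest rises were in Ndufa11 (0.68 ± 0.09), Cox6a2 (0.62 ± 0.09) and Uqcr10 (0.39 ± 0.09). The largest falls were in Ndufb8 (-0.90 ± 0.11), Sdha (-0.78 ± 0.07), Uqcr11 (-0.70 ± 0.12), Atp5k (-0.59 ± 0.10) and Ndufs1 (-0.54 ± 0.09). All 10 had adjusted p of 0.0024 or less by limma.

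In ES adipocytes 42 members were higher than in eWAT, 1 was lower and 44 were not called. Of all genes 28.8% were higher and 20.9% lower, and of the brightest genes 44.5% and 24.8%. The median member difference was 0.20 (all genes 0.04, brightest genes 0.14). Quantile normalization gave 33 higher and 8 lower (28.2% and 21.8% of all genes), and centring on reference genes 33 and 7 (22.7% and 27.0%). Without eWAT replicate 2 the count of lower members was 5. The 3 members raised 2-fold or more (10.2% of all genes changed that much) were Ndufa4l2 (3.28 ± 0.11), Atp5g1 (1.67 ± 0.06) and Cox6a2 (1.60 ± 0.09), followed by Uqcr10 (0.998 ± 0.09) and Ndufaf4 (0.95 ± 0.08). The single fall was in Sdha (-0.58 ± 0.07). These 6 had adjusted p of 1.5e-05 or less by limma.

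**Figure D3:**
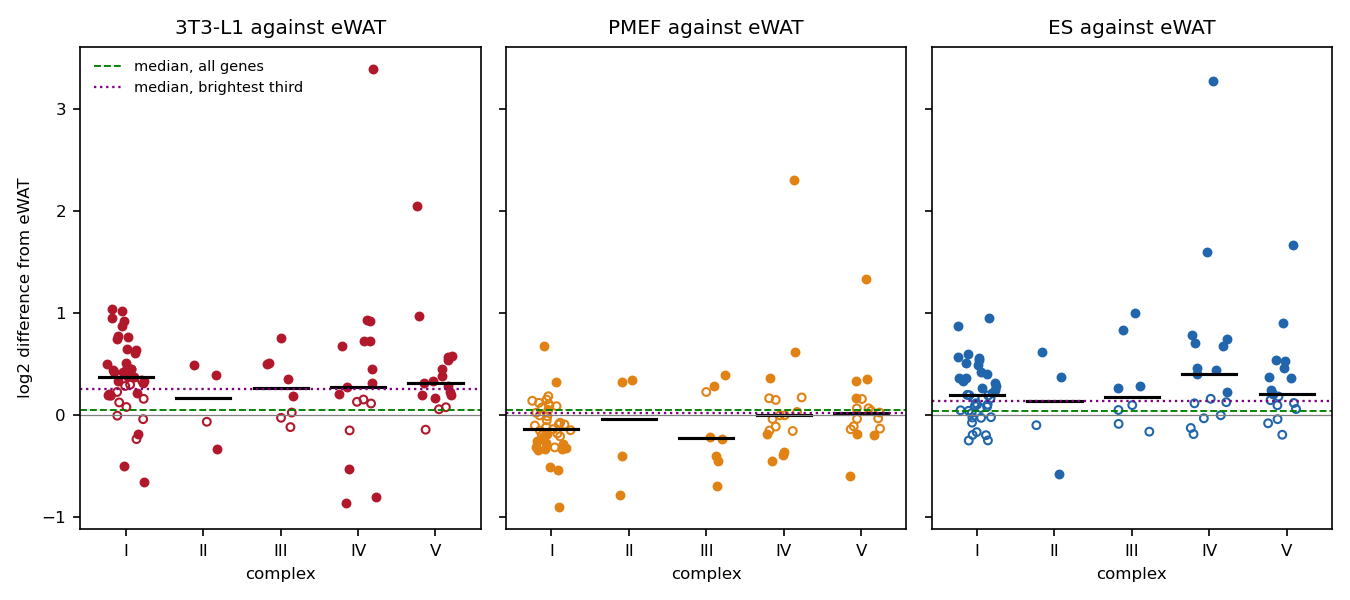
Each point is 1 member, placed by its log2 difference from eWAT, in 3 panels for the 3 kinds of cultured adipocyte. Filled points passed the test, open points did not, black bars are medians per complex, and the dashed and dotted lines are the medians of all genes and of the brightest genes. Most members lie within 1 log2 unit of eWAT, and the few that do not are Atp5g1, Ndufa11, Ndufaf5, Cox6a2, Cox6b2 and Ndufa4l2.

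The cultured adipocytes also differed among themselves, and since the 6 comparisons reuse the same 4 groups of arrays they are not independent of one another. Against 3T3-L1, PMEF had 65 members lower and 5 higher (27.8% and 22.3% of all genes, 50.9% and 24.0% of the brightest genes), with a median difference of -0.40. Centring on array medians gave 77 lower and 2 higher (46.0% and 14.2% of all genes), and centring on reference genes 36 lower and 12 higher (17.2% and 52.2%). The largest falls were in Cox6a2 (-2.78 ± 0.09), Ndufaf5 (-1.30 ± 0.09), Ndufb8 (-1.13 ± 0.11), Ndufa5 (-1.11 ± 0.08) and Cox4i1 (-1.11 ± 0.07). The 5 members that rose were Cox6b2 (2.83 ± 0.13), Cox4i2 (0.48 ± 0.13), Ndufb3 (0.46 ± 0.08), Ndufa4l2 (0.35 ± 0.11) and Ndufa3 (0.33 ± 0.07). Of the members, 7 changed 2-fold or more (12.5% of all genes did). ES had 56 members higher than PMEF and 1 lower (23.6% and 19.0% of all genes, 41.2% and 24.1% of the brightest), with a median of 0.30, and 3 members changed 2-fold or more (6.71% of all genes did). The largest rises there were in Ndufa4l2 (3.73 ± 0.11), Cox4i2 (1.17 ± 0.13), Cox6a2 (0.98 ± 0.09), Cox4i1 (0.90 ± 0.07) and Ndufb7 (0.87 ± 0.07), and the fall was in Cox6b2 (-1.56 ± 0.13), the single one called (2 without PMEF replicate 1). All of these had adjusted p of 0.020 or less by limma.

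Between ES and 3T3-L1 the sign of the median member difference depended on the scaling, which moved all genes with it. ES had 30 members lower and 10 higher (23.0% and 20.4% of all genes, 39.9% and 25.2% of the brightest), 4 of them by 2-fold or more (8.14% of all genes), with a median difference of -0.10 (-0.02 for all genes). Centring on array medians gave 60 lower and 6 higher (47.2% and 13.1% of all genes), with a median of -0.31 (-0.23 for all genes). Centring on reference genes gave 9 lower and 24 higher (13.3% and 38.7% of all genes), with a median of 0.10 (0.18 for all genes). As deposited, 2 of the 8 reference genes were higher in ES than in 3T3-L1 and 3 lower, with differences from -1.93 to 0.89. With quantile normalization the medians were -0.09 for members and -0.02 for all genes. Each centring moves every gene alike, so it cannot change the gap between these medians. As deposited, the median of the brightest genes was -0.09, near that of the members. The 10 genes with the largest called differences kept their sign and passed the test under quantile normalization and under both centrings. Cox6a2 (-1.79 ± 0.09), Ndufa4 (-0.91 ± 0.08), Ndufaf5 (-0.76 ± 0.09), Ndufa5 (-0.71 ± 0.08) and Ndufaf7 (-0.67 ± 0.10) were lowest relative to 3T3-L1, and Ndufa4l2 (4.08 ± 0.11), Cox4i2 (1.65 ± 0.13), Cox6b2 (1.28 ± 0.13), Ndufb3 (0.77 ± 0.08) and Ndufa3 (0.59 ± 0.07) highest, with adjusted p of 7.4e-05 or less by limma.

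Read by complex, the counts in 3T3-L1 again depended on scaling. Of all genes 30.8% were higher than in eWAT and 22.5% lower as deposited, and of the brightest genes 53.2% and 24.5%. The counts were then 27 higher and 3 lower in complex I, 2 and 1 in complex II, and 5 and 0 in complex III. They were 10 and 3 in complex IV and 14 and 0 in complex V. Centred on reference genes they were 11 and 7, 0 and 2, 2 and 3, 6 and 5, and 5 and 1, while 17.5% of all genes were then higher and 50.4% lower. That centring moved the median gene in 3T3-L1 by -0.30, in ES by -0.09 and in PMEF by -0.04.

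Of the 41 genes of complex I, the NADH dehydrogenase, 27 (65.9%) were higher than in eWAT in 3T3-L1. In PMEF 2 (4.88%) were higher and 13 (31.7%) lower, and in ES 17 (41.5%) were higher and 0 lower. The share lower in PMEF and the share higher in ES were near those of the brightest genes (29.0% and 44.5%). The 6 core subunits, which include those that carry the flavin and iron-sulphur centres, were all lower in PMEF than in 3T3-L1 and all higher in ES than in PMEF (5 of 6 in each comparison when centred on reference genes). In these comparisons 27.8% of all genes were lower and 23.6% higher, and of the brightest genes 50.9% and 41.2%. Ndufv1, the subunit that binds NADH and flavin, measured 11.02, 10.96 and 10.91 in 3T3-L1, 9.81, 9.96 and 10.01 in PMEF, 10.61, 10.63 and 10.57 in ES, and 10.19, 9.95 and 9.99 in eWAT. Its 3T3-L1 and ES arrays lay above all others, and its PMEF and eWAT arrays overlapped. Ndufs1, an iron-sulphur core subunit, fell in PMEF (-0.54) but did not pass the test in 3T3-L1 (0.19 ± 0.09) or ES (-0.20 ± 0.09).

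Among the 28 accessory subunits of complex I, Ndufa11 was set apart from eWAT in all 3 cultures. It measured 10.28, 10.35 and 10.23 in 3T3-L1, 9.95, 10.01 and 9.85 in PMEF, 10.17, 10.10 and 10.11 in ES, and 9.46, 9.04 and 9.26 in eWAT, with no cultured array as low as the highest tissue array. Ndufb8 showed another pattern, lowest in PMEF: 9.20, 8.85 and 8.89 there, against 10.04, 10.12 and 10.16 in 3T3-L1, 9.70, 9.74 and 9.63 in ES and 10.05, 9.69 and 9.91 in eWAT. Ndufb3 ran against most of its complex, with its lowest values in 3T3-L1 (8.02, 8.28 and 8.12, against 8.72 to 8.84 in eWAT). Ndufa3 was likewise lower in 3T3-L1 than in eWAT (-0.19 ± 0.07, but 0.02 and not called with arrays centred on their medians) and higher in ES (0.40 ± 0.07). Ndufa12 and Ndufc2 passed the test in none of the 6 comparisons, nor did Ndufs4 and Ndufs6, whose replicate arrays were more widely spread (SE 0.15 and 0.17).

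The assembly factors of complex I, which help to build it and are not part of the finished enzyme, differed among themselves. In 3T3-L1, 6 of 7 were higher than in eWAT and 1, Ndufaf3, was lower (30.8% and 22.5% of all genes, 53.2% and 24.5% of the brightest). Ndufaf5 measured 6.95, 6.89 and 7.16 in 3T3-L1, 5.70, 5.83 and 5.56 in PMEF, 6.36, 6.10 and 6.27 in ES, and 5.95, 5.98 and 6.01 in eWAT, so that the 4 groups did not overlap. Its PMEF and eWAT arrays were low, below the lowest array median over genes (6.11). Ndufaf4 overlapped between ES (8.49, 8.44 and 8.43) and 3T3-L1 (8.35, 8.52 and 8.48), with PMEF at 7.71 to 7.95 and eWAT at 7.41 to 7.57. Ndufaf1 was highest in ES (8.96 to 8.98), above 3T3-L1 by 0.38 ± 0.07 (0.18 and not called with arrays centred on their medians), while Ndufaf2 was highest in 3T3-L1 (7.50 to 7.73) and did not pass the test between ES and eWAT (0.16 ± 0.08).

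Complex II links the chain to the citric acid cycle, and its 4 subunits did not move together. Sdha, the flavoprotein that oxidises succinate, was highest in eWAT: 11.60, 11.53 and 11.61 there, against 11.31, 11.26 and 11.19 in 3T3-L1, 10.84, 10.67 and 10.89 in PMEF and 11.03, 10.94 and 11.02 in ES. The 4 groups did not overlap, and against eWAT 3T3-L1 was at -0.33 ± 0.07, PMEF at -0.78 ± 0.07 and ES at -0.58 ± 0.07 (adjusted p 0.0015, 9.2e-07 and 1.5e-05 by limma). The membrane anchors went the other way. Sdhc rose by 0.49 ± 0.09, 0.33 ± 0.09 and 0.61 ± 0.09, and Sdhd by 0.39 ± 0.10, 0.35 ± 0.10 and 0.37 ± 0.10, in the same order of groups. Sdhb, the iron-sulphur subunit, fell in PMEF (-0.40 ± 0.08) and passed no test against eWAT in 3T3-L1 (-0.07) or ES (-0.10). These differences between subunits of 1 enzyme depended in part on scaling in 3T3-L1: Sdha was at -0.12 and not called with arrays centred on their medians, and Sdhc (0.19) and Sdhd (0.09) were not called with arrays centred on reference genes. In PMEF and ES, the fall of Sdha and the rises of Sdhc and Sdhd passed the test under all 3 other scalings.

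In complex III, 5 of 8 subunits (62.5%) were higher in 3T3-L1 than in eWAT and 0 lower, and 4 (50%) were higher in ES and 0 lower. Of all genes 30.8% were higher in 3T3-L1 and 28.8% in ES. Of the brightest genes 53.2% and 44.5% were, so the shares higher in complex III were near these. PMEF split the complex: Uqcr10 (0.39 ± 0.09) and Uqcrh, the hinge protein (0.29 ± 0.11), were higher than in eWAT. Both core proteins, Uqcrc1 (-0.40 ± 0.08) and Uqcrc2 (-0.22 ± 0.06), the Rieske iron-sulphur protein Uqcrfs1 (-0.24 ± 0.08), and the small subunits Uqcr11 (-0.70 ± 0.12) and Uqcrb (-0.45 ± 0.08) were lower. Uqcr10 measured 10.40, 10.24 and 10.36 in ES, 10.09, 9.94 and 10.24 in 3T3-L1, 9.73, 9.68 and 9.75 in PMEF, and 9.46, 9.22 and 9.32 in eWAT. ES and 3T3-L1 shared the value 10.24 at 2 decimals, and the other groups did not overlap.

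Complex IV, cytochrome c oxidase, hands the electrons to oxygen. Of its 11 common subunits 9 were higher in 3T3-L1 than in eWAT and 0 lower, and 9 were lower in PMEF than in 3T3-L1. In the same comparisons 30.8% of all genes were higher and 27.8% lower, and of the brightest genes 53.2% and 50.9%. Cox4i1, the common form of subunit 4, measured 11.48, 11.47 and 11.37 in 3T3-L1, 10.35, 10.37 and 10.28 in PMEF, 11.22, 11.28 and 11.18 in ES, and 10.59, 10.40 and 10.57 in eWAT. Its PMEF arrays were the lowest of the 4 groups, 2.16-fold below 3T3-L1. Ndufa4, first assigned to complex I and now placed in complex IV, was high in 3T3-L1 alone (10.75, 10.77 and 10.81, against 9.81 to 10.18 in the other 9 arrays). Cox7a2, the common form of subunit 7a, rose in all 3 cultures (0.72 ± 0.08, 0.36 ± 0.08 and 0.44 ± 0.08 in 3T3-L1, PMEF and ES). Cox7a2l, a related factor that joins complexes into supercomplexes, rose in 3T3-L1 (0.93 ± 0.10) and ES (0.67 ± 0.10). Its second probe set gave 0.44 and 0.25, the widest disagreement between probe sets of a member. Cox6a1 rose in 3T3-L1 (0.45 ± 0.08) and fell in PMEF (-0.36 ± 0.08). Cox8a rose only slightly in 3T3-L1 (0.27 ± 0.06), a change that was -0.02 after centring on reference genes. Cox6b1 was called against eWAT in ES (0.22 ± 0.09, adjusted p 0.048 by limma) and in no other comparison.

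The restricted isoforms of complex IV did not all share 1 pattern, though Ndufa4l2 and Cox4i2 had the same order of groups. Cox6a2, the heart and skeletal muscle form of subunit 6a, was the most raised member in 3T3-L1. It measured 9.56, 9.68 and 9.56 there, 7.73, 7.94 and 7.76 in ES, 6.78, 6.93 and 6.77 in PMEF, and 6.02, 6.25 and 6.35 in eWAT, and no groups overlapped. The 3T3-L1 level was 10.5-fold and the ES level 3.04-fold that of eWAT (adjusted p 3.5e-12 and 1.1e-08 by limma). The lowest group means of Cox6a2, Cox6b2, Ndufa4l2 and Cox4i2 were 6.21, 5.42, 6.04 and 6.23. These lay near or below the array medians over genes (6.11 to 6.35), so folds taken against such low values are uncertain in size. The striated muscle markers, 12 of 12 measured, had summed levels of 9.44 to 9.53 in 3T3-L1 and 9.43 to 9.49 in eWAT, and their highest gene mean was 7.08 in 3T3-L1 and 6.88 in eWAT.

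Cox6b2, known as the testis form of subunit 6b, was the most raised member in PMEF. It measured 8.36, 8.31 and 8.10 in PMEF, 6.60, 6.91 and 6.58 in ES, 6.02, 5.82 and 6.01 in eWAT, and 5.14, 5.44 and 5.68 in 3T3-L1, again with no overlap. PMEF stood 4.94-fold above eWAT (adjusted p 7.2e-09 by limma). Of the germ cell and epididymis markers 9 were measured, with summed levels of 7.86 to 8.14 in PMEF and 7.90 to 8.02 in eWAT and no gene mean above 5.74. The other testis forms, Cox7b2 and Cox8c, passed the test in no comparison. Cox7b2 had the lowest mean of the members, 3.16, below the 10th percentile of all genes (3.84), and a low signal of this kind shows no difference either way.

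Ndufa4l2, a relative of Ndufa4 that is induced by lack of oxygen, was the most raised member in ES. It measured 10.16, 10.21 and 9.996 in ES, 7.05, 6.77 and 6.72 in eWAT, 6.31, 6.37 and 6.49 in PMEF, and 5.86, 6.26 and 6.01 in 3T3-L1. No groups overlapped, and ES stood 9.71-fold above eWAT and 16.9-fold above 3T3-L1 (adjusted p 6.1e-11 and 8.4e-12 by limma). Cox4i2, the alternative form of subunit 4, known from lung and from cells short of oxygen, was also highest in ES, at 7.79, 8.12 and 7.73. It measured 7.08, 7.23 and 6.98 in eWAT, 6.50, 6.83 and 6.80 in PMEF, and 6.48, 6.08 and 6.13 in 3T3-L1, and was 1.72-fold higher in ES than in eWAT. Of the 13 hypoxia-induced genes listed beside the chain, all were higher in ES than in eWAT, 8 of them by 2-fold or more, led by the oxygen sensor Egln3 (4.14 ± 0.19) and the glucose transporter Slc2a1 (3.20 ± 0.07). In 3T3-L1 5 of the 13 were higher and 4 lower, and in PMEF 3 higher and 7 lower. Of all genes 28.8% were higher in ES and 10.2% changed 2-fold or more there. The shares of all genes higher and lower were 30.8% and 22.5% in 3T3-L1 and 24.7% and 21.6% in PMEF. Oxygen was not measured, and its part in these levels was not tested. Both Cox4i2 and Ndufa4l2 are also known from pericytes; the 8 mural markers had summed levels of 11.78 to 12.003 in eWAT, 11.40 to 11.49 in PMEF, 10.23 to 10.33 in ES and 9.09 to 9.11 in 3T3-L1, so they were lower in ES than in eWAT.

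The isoforms left out by the rule diverged from the other complex IV genes as well. Cox7a1, the muscle and brown fat form of subunit 7a, was at 11.44, 11.32 and 11.47 in ES, 9.85 to 9.87 in 3T3-L1, 9.42 to 9.54 in PMEF, and 9.74, 8.98 and 9.08 in eWAT. Cox8b, the muscle and brown fat form of subunit 8, was lowest in ES (9.18, 8.72 and 9.15), with 10.55 to 10.83 in PMEF, 11.45 to 11.78 in 3T3-L1 and 11.40 to 11.88 in eWAT. The same ES arrays were thus the highest in Cox7a1 and the lowest in Cox8b.

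**Figure D4:**
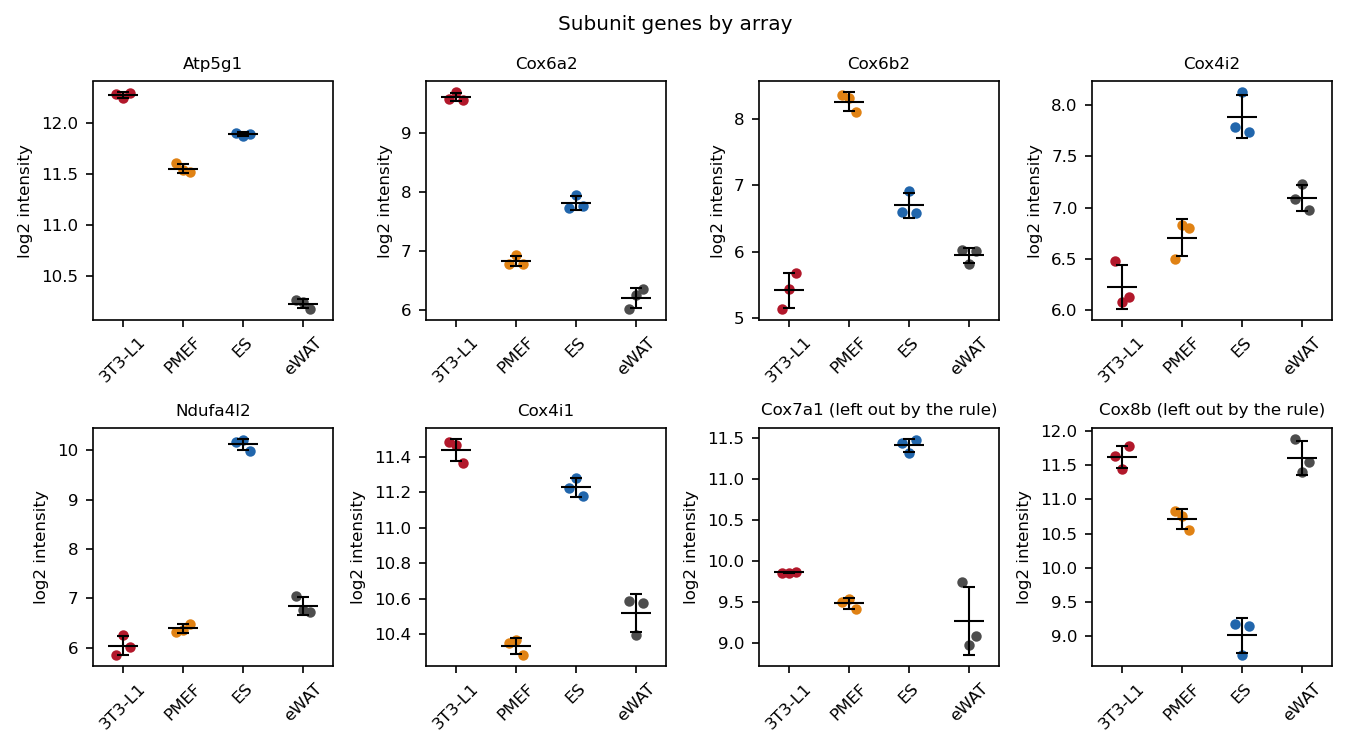
Log2 intensity of 8 subunit genes on the 12 arrays, 3 points per group with the mean and SD as a black mark and bar; each panel has its own axis, which does not start at 0. Atp5g1 is low in eWAT only, Cox6a2 peaks in 3T3-L1, Cox6b2 in PMEF, and Cox4i2, Ndufa4l2 and Cox7a1 in ES, while Cox8b is lowest in ES.

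In complex V, 14 of 17 genes were higher in 3T3-L1 than in eWAT and 0 lower, and 9 (52.9%) were higher in ES and 0 lower. Of the brightest genes 53.2% were higher in 3T3-L1 and 44.5% in ES, and of all genes 30.8% and 28.8%. In PMEF 4 (23.5%) of the 17 were higher and 3 (17.6%) lower, close to the 24.7% and 21.6% of all genes. The 5 genes of the catalytic F1 head, which makes the ATP, differed from eWAT by a median of 0.19 in 3T3-L1, 0.09 in ES and -0.14 in PMEF. Atp5b, the beta subunit with the catalytic sites, differed from eWAT by 0.17 ± 0.06 in 3T3-L1, -0.04 ± 0.06 in ES (not called) and -0.14 ± 0.06 in PMEF (not called). The proton-carrying c ring is built from subunit c, which 3 genes encode. Of these Atp5g1 measured 12.28, 12.25 and 12.30 in 3T3-L1, 11.61, 11.54 and 11.52 in PMEF, 11.91, 11.87 and 11.90 in ES, and 10.26, 10.24 and 10.17 in eWAT. Its 4 groups did not overlap, and 3T3-L1 stood 4.15-fold, PMEF 2.51-fold and ES 3.17-fold above the tissue (adjusted p 6.2e-12, 7.0e-10 and 1.0e-10 by limma). A second probe set for Atp5g1 gave log2 differences of 1.94, 1.25 and 1.59 in the same order. In the order 3T3-L1, PMEF and ES, the other subunit c genes differed less, Atp5g2 by 0.45 ± 0.06, 0.07 ± 0.06 and 0.36 ± 0.06 and Atp5g3 by 0.58 ± 0.07, 0.16 ± 0.07 and 0.37 ± 0.07, and neither passed the test in PMEF.

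Of the 4 stalk genes, which hold the F1 head to the membrane, all were above eWAT in 3T3-L1, 3 in ES and 2 in PMEF, with 0 lower in any. In the same order 30.8%, 28.8% and 24.7% of all genes were higher, and 53.2%, 44.5% and 32.9% of the brightest. Atp5o, the oligomycin sensitivity conferring protein, measured 11.21, 11.11 and 11.14 in 3T3-L1, 11.07, 11.10 and 11.09 in ES, 10.53, 10.56 and 10.54 in PMEF, and 10.38, 10.04 and 10.15 in eWAT. The 3T3-L1 and ES values lay close together, and all cultured arrays lay above the tissue. Atp5k, subunit e, which helps ATP synthase pair up, was low in PMEF (7.74, 8.02 and 7.93, against 8.35 to 8.62 in eWAT). Atp5e and Atp5l passed the test in no comparison.

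Promoters were compared for shared sequence, because NRF1, the nuclear respiratory factor, is known to bind many respiratory chain promoters. Windows of 300 bases (250 before and 50 after the gene start, RefSeq, build GRCm38.p6) were in the table used for 71 of the 87 members. The NRF1 letters, GCGC and TGCGC with any 1 base between them, searched on both strands, lay in the window of 18 of the 71 members (25.4%, against 5.19% of the 27025 genes in that table). The other motifs searched were CCGGAAGT of ETS factors (7.04% of members, 4.31% of genes), AAGATG followed directly by GCGGC, of YY1 (5.63% and 0.755%), TCAAGGTCA of the oestrogen-related receptors (2.82% and 0.466%), ACGTGC of the hypoxia-inducible factors (2.82% and 6.68%) and the GC box GGGCGG (46.5% and 38.2%). None of these strings contains another. The 27025 genes are neither the 19938 measured here nor the brightest of them, so members are set beside an unlike set of genes. A match is only a run of letters in the window. Of the 18 members with the NRF1 letters, 14 were higher in 3T3-L1 than in eWAT and 1 lower (median 0.48); of the 53 without, 33 were higher and 4 lower (median 0.31). In PMEF the medians were -0.09 in both sets, and in ES 0.31 and 0.19.

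The 6 windows that follow are examples of genes with differing patterns, with and without the NRF1 letters. They were chosen after their values were seen and do not represent the members as a whole. Capitals mark the NRF1 letters on either strand, and each line reads along the gene's own strand. Ndufa11 (chr17:56717512-56717811, plus strand) and Atp5o (chr16:91931581-91931880, minus strand) were lowest in eWAT; Ndufaf5 (chr2:140170396-140170695, plus strand) and Uqcrc1 (chr9:108936398-108936697, plus strand) were highest in 3T3-L1 and lowest in PMEF. Sdha (chr13:74350191-74350490, minus strand) was highest in eWAT and holds the letters 3 times. Atp5g1 (chr11:96075582-96075881, minus strand), 2-fold or more above eWAT in all 3 cultures, holds none of the 6 motifs.
Ndufa11: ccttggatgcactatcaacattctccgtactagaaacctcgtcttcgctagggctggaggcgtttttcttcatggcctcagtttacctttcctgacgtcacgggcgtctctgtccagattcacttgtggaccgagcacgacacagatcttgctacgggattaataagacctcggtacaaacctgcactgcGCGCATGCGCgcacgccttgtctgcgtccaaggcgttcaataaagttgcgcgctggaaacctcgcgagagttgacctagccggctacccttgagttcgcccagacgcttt
Atp5o: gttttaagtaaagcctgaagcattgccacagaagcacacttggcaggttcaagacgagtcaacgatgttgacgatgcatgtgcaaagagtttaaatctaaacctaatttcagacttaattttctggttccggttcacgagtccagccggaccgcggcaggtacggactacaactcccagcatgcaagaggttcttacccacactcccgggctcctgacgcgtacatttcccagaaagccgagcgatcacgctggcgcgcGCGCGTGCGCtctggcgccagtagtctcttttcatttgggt
Ndufaf5: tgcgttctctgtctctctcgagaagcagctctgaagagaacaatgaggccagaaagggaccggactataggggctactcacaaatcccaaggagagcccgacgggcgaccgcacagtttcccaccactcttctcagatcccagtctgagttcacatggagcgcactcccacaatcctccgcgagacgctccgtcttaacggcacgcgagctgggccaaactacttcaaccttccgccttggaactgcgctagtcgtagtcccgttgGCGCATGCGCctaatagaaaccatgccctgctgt
Uqcrc1: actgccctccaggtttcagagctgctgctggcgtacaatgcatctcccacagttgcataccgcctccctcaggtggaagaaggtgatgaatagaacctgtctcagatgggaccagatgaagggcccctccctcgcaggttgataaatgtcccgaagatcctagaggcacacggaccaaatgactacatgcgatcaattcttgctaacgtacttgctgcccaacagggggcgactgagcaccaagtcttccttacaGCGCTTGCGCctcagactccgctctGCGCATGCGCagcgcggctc
Sdha: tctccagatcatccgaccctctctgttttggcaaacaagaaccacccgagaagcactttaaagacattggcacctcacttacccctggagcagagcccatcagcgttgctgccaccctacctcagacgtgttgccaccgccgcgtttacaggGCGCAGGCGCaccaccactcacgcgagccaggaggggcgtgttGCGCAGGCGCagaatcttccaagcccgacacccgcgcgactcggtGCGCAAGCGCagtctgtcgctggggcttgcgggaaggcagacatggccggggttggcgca
Atp5g1: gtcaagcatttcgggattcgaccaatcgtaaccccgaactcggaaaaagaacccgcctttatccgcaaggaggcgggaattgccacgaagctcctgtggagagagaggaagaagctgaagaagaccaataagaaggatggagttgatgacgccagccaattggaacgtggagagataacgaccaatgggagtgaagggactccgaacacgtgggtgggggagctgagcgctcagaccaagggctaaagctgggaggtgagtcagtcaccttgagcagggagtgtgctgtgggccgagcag
Of the 5 windows with the NRF1 letters, those of Ndufa11 and Atp5o belong to genes higher than eWAT in all 3 cultures and that of Sdha to a gene lower in all 3. Uqcrc1 was higher than eWAT in 3T3-L1, lower in PMEF and not called in ES, and Ndufaf5 was higher in 3T3-L1 and ES and lower in PMEF.

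Genes that work with the chain were read from lists made beside the members. Their counts against eWAT stand beside the shares of all genes higher and lower. These were 30.8% and 22.5% in 3T3-L1, 24.7% and 21.6% in PMEF, and 28.8% and 20.9% in ES. Ppargc1a, the co-activator that drives mitochondrial gene programmes, measured 10.4, 10.3 and 10.4 in 3T3-L1, 8.57, 8.37 and 8.54 in PMEF, 8.997, 8.93 and 8.91 in ES, and 7.85, 8.02 and 7.70 in eWAT. The 4 groups did not overlap. Against eWAT, 13 of the 19 biogenesis regulators were higher in 3T3-L1 and 3 lower, 3 higher and 7 lower in PMEF, and 13 higher and 2 lower in ES. Their differences in 3T3-L1 ran from -2.36 to 2.51, and those named here are mostly ones that rose. Tfam, which packages mitochondrial DNA, rose in 3T3-L1 (0.97 ± 0.15) and ES (0.85 ± 0.15) and was at -0.01 ± 0.15 in PMEF. Esrra rose by 0.96 ± 0.10 in 3T3-L1 and 0.43 ± 0.10 in ES, and Nrf1 by 0.77 ± 0.08 and 0.45 ± 0.08. Neither passed the test in PMEF (0.16 for each). Gabpa, an ETS factor, rose in 3T3-L1 (0.72 ± 0.08) and fell in PMEF (-0.31 ± 0.08), and Ppargc1b rose most in ES (1.29 ± 0.16).

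The mitochondrial ribosome, which translates the mitochondrially encoded subunits, was described by 77 genes. Of these 66 were higher in 3T3-L1 than in eWAT and 3 lower (median 0.61), 64 higher and 0 lower in ES (median 0.56), and 19 higher and 12 lower in PMEF (median 0.05). Cytosolic ribosome genes were also higher in each culture (43, 36 and 52 of 63 in 3T3-L1, PMEF and ES). Centred on reference genes, 48 mitochondrial ribosome genes were higher and 6 lower in 3T3-L1, and 24 cytosolic ribosome genes were higher and 11 lower (17.5% and 50.4% of all genes). The 2 mitochondrially encoded genes measured alone, COX2 and ND3, went the other way from these ribosome genes in the deposited values. COX2 was at -0.21 ± 0.07, -0.32 ± 0.07 and -0.16 ± 0.07 (not called) and ND3 at -0.36 ± 0.09, -0.40 ± 0.09 and -0.27 ± 0.09, in 3T3-L1, PMEF and ES. Centring on array medians moved every gene by 0.21 in 3T3-L1 against eWAT, as much as COX2 differed, so the fall of COX2 there depended on scaling.

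In the citric acid cycle, 11 of 17 measured genes were lower in PMEF than in eWAT and 0 higher, led by Pcx (-1.24) and Suclg2 (-1.04), and all 17 were lower than in 3T3-L1. In 3T3-L1 10 were higher than in eWAT and 1 lower (5 and 5 when centred on reference genes), and in ES 4 higher and 7 lower. Cs, citrate synthase, rose in 3T3-L1 (0.40 ± 0.06) and ES (0.22 ± 0.06). Of 20 electron carriers and other entry points, 8 were higher and 5 lower in 3T3-L1, 3 higher and 13 lower in PMEF, and 6 higher and 5 lower in ES. Cyc1, the cytochrome of complex III, rose in 3T3-L1 (0.80 ± 0.07) and fell in PMEF (-0.41 ± 0.07), and Cycs, cytochrome c itself, was at 0.28 ± 0.08 and -0.26 ± 0.08. Gpd2, which feeds glycerol phosphate electrons into the chain, was lower in PMEF (-2.14 ± 0.08) and ES (-2.55 ± 0.08) and was at -0.06 ± 0.08 in 3T3-L1. Among 34 further assembly factors 22 were higher and 3 lower in 3T3-L1, 7 higher and 13 lower in PMEF, and 20 higher and 1 lower in ES, with the complex III factor Uqcc2 rising most in 3T3-L1 (1.65 ± 0.08).

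**Figure D5:**
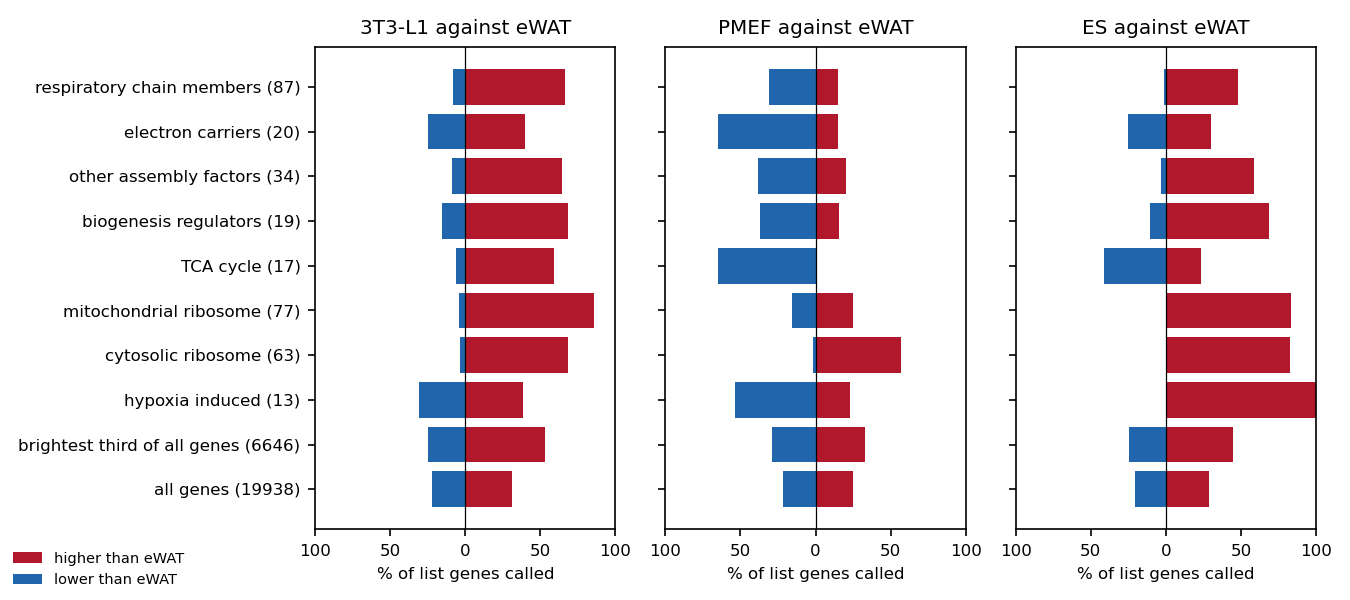
Bars to the right give the percent of each list's genes higher than in eWAT and bars to the left the percent lower (limma, adjusted p under 0.05), with the number of genes in brackets. The mitochondrial ribosome shows the highest share of higher genes in 3T3-L1, the citric acid cycle and electron carriers the highest shares of lower genes in PMEF, and all 13 hypoxia-induced genes are higher in ES.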

How the data were processed

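Total RNA of 12 mouse samples, extracted with TRIzol, was labelled from 300 ng with the Ambion WT Expression kit and hybridised to Affymetrix arrays, per the labels' protocols. The deposited values are log2 intensities per probe set that the authors had already normalised; how, and with which software, is not stated in the labels or file headers. Arrays have no read depth, and 3 per group set the precision. Of 35556 probe sets, 21789 carry 1 gene symbol, 1621 carry several and 12146 none. The brightest single-symbol probe set stood for each of 19938 genes.

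The 4 groups, taken from the labels, were fitted together with limma 3.58.1 in R 4.3.3, with no covariate and no filter. The 6 comparisons were tested with moderated statistics, and p-values were adjusted by Benjamini-Hochberg over all 19938 genes in each. A gene was called at an adjusted p under 0.05. The labels call the samples biological triplicates but tie them to no animal or culture batch, so the p-values measure the spread between these samples. Where the groups of arrays are said not to overlap, this is by the deposited values.

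Named members were the 5 largest called rises and the 5 largest called falls of each comparison, and all alternative isoform pairs. The genes named from other lists are a selection and do not always include the largest changes of their list. Other genes were named to describe a complex after their values were seen. The members and the lists were chosen with earlier results of these data known. A summed marker level is the log2 of the sum of the genes' linear intensities on an array. Promoter windows came from RefSeq (GRCm38.p6), matched by symbol or gene ID.

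Tested on simulated data for 3T3-L1 against eWAT over 19938 genes, the procedure recovered 2% of genes changed by 0.25 log2, 66% of those changed by 0.5 and 100% of those changed by 1 or 2, with 5 false calls among 139. Far fewer genes were changed there than in the data, where 10628 were called in that comparison. The adjustment of p-values was therefore stricter in the simulation, and these shares are not those recovered in the data. Alternatives were quantile normalization, centring on array medians or on 8 reference genes, averaging probe sets, dropping the dimmest 33.3% of genes, fitting only the groups compared, a replicate block, a trended and robust variance, and leaving out each array. Restriction to the 6646 brightest genes was added after the data were seen.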

Additional observations from a re-analysis of the deposited data

How the results depend on the processing

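The size and balance of the chain's shift depended on how arrays were scaled, and part of this follows from the centrings' own shift of all genes. Centring on reference genes, which moved the median of all genes by -0.30 in 3T3-L1 against eWAT and by 0.26 and 0.20 for PMEF and ES against 3T3-L1 (of the reference genes, Rplp0 and Pgk1 belong to lists described above), gave medians of 0.036 in 3T3-L1 and 0.10 in ES against eWAT, -0.14 for PMEF and 0.10, reversed, for ES against 3T3-L1, and 0.24 for ES against PMEF. It gave 24 members higher and 18 lower in 3T3-L1 against eWAT, 24 and 9 for ES against 3T3-L1, 12 and 36 for PMEF against 3T3-L1 (3 by 2-fold), 2 lower for ES against PMEF and 7 lower for ES against eWAT. Genes not called that changed sign under it were Atp5g2 (ES against 3T3-L1 0.12), Cox6b1 (3T3-L1 against eWAT -0.17), Cox8c (-0.14, and 0.019 for ES against 3T3-L1) and Cox8a (PMEF against eWAT -0.0067, ES against 3T3-L1 0.047 and PMEF against 3T3-L1 0.018), while Cox8a in 3T3-L1 against eWAT, called as deposited, was at -0.025. Centring on medians gave medians of 0.54 for 3T3-L1 against eWAT, -0.31 for ES and -0.62 for PMEF against 3T3-L1, with 10 and 13 members changed 2-fold for 3T3-L1 against eWAT and PMEF against 3T3-L1, 6 higher and 60 lower for ES against 3T3-L1 and 2 higher for PMEF against 3T3-L1. It reversed Cox6b1 (ES -0.11 and PMEF -0.20 against 3T3-L1), Cox8c (PMEF against 3T3-L1 -0.21) and Cox7b2 (0.059 for 3T3-L1 against eWAT, -0.18 for ES and -0.18 for PMEF against 3T3-L1, 0.00059 for ES against PMEF). Quantile normalization gave medians of 0.21 and 0.085 for 3T3-L1 and ES against eWAT, 0.20 for ES against PMEF and -0.28 for PMEF against 3T3-L1, 12 lower in 3T3-L1 and 8 lower in ES against eWAT, 3 lower for ES against PMEF and 4 changed 2-fold for PMEF against 3T3-L1. It reversed Cox6a1 (ES against eWAT -0.0094), Cox6b1 (3T3-L1 against eWAT -0.044, ES against PMEF -0.024), Cox8c (PMEF against 3T3-L1 -0.032) and Cox8a (ES -0.052 and PMEF -0.031 against eWAT, ES against PMEF -0.022). No called member was called in the opposite direction under any alternative run.

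Testing only the 6646 brightest genes, an alternative chosen after seeing the data, gave fewer calls by its construction: 5418, 4527, 5023, 5326, 4763 and 4757 genes changed in the 6 comparisons in the order 3T3-L1, PMEF and ES against eWAT, PMEF and ES against 3T3-L1, and ES against PMEF. Members changed 2-fold were then 1 for ES against 3T3-L1, 0 for ES against PMEF and 1 for PMEF against eWAT; 3 were higher for PMEF against 3T3-L1, and 4, 5 and 0 were lower in 3T3-L1 against eWAT, ES against eWAT and ES against PMEF. Members lower in ES against eWAT were 4 without the dimmest 33.3% of genes, 5 with a trended and robust variance, and 1 to 5 when 1 array was left out (5 without eWAT replicate 2). Leaving out PMEF replicate 1 gave 2 members lower for ES against PMEF in place of 1. The leave-one-out medians of ES against 3T3-L1 lay between -0.12 and -0.10. The members lower in PMEF against eWAT ranged from 18 to 27 and those higher in 3T3-L1 from 53 to 61. Single-member values that changed sign when 1 array was left out were those of Cox6b1 (PMEF against 3T3-L1, -0.043 to 0.054), Cox7b2 (PMEF against 3T3-L1 -0.086 to 0.15, ES against 3T3-L1 -0.10 to 0.14, ES against PMEF -0.075 to 0.023), Cox8a (PMEF against eWAT, -0.00042 to 0.064) and Cox8c (PMEF against 3T3-L1 -0.052 to 0.095, ES against eWAT -0.058 to 0.014).

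The samples share replicate numbers, but same-numbered arrays did not deviate together (r between -0.14 and 0.11 over 18 pairs, 1 above 0.1). A pair of unlike number, 3T3-L1 replicate 1 and PMEF replicate 3, reached 0.15. No pairing by number was seen, but with 3 arrays per group such a check cannot exclude one. With a replicate block, 59 members were higher and 6 lower in 3T3-L1 against eWAT, and 2 lower in ES against eWAT. A member not called may still differ. The simulation does not give the size of change that could be missed, because far fewer genes were changed in it than in the data.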
